A study of Mus musculus with 4 samples.

Results

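Shelterin and the CST complex are the protein assemblies that sit on chromosome ends, and the 10 mouse genes encoding their subunits were followed in grafted reconstituted ovaries (rOvaries). They were taken by name from the known subunits, a list drawn up with earlier results of these data known, with 7 shelterin genes (Terf1, Terf2, Terf2ip, Tinf2, Acd, Pot1a and Pot1b) and 3 CST genes (Ctc1, Stn1 and Ten1) among the 54021 gene symbols of the count table. The rOvaries had been made by aggregating primordial germ cells and gonadal somatic cells of actin-GFP C57BL/6 fetuses and grafting them under the kidney capsule of G2 Terc-/- C57BL/6 females aged 2 to 3 months, whose own ovaries had been removed. Terc encodes the RNA template of telomerase, and the recipients of both groups lacked it. The recipients received the mTOR kinase inhibitor INK128 in drinking water (INK128, 0.75 µM per g of body weight per the labels, n = 2 libraries) or no inhibitor (Control, n = 2), and polyA RNA of the grafts was sequenced 1 month after transplantation. The sources used here differ on the dose, which the methods give as a concentration in the water and as an approximate mass per body weight and day. The graft is a mixture of GFP donor cells, which carry Terc, and host cells, which do not, so its RNA is not that of a telomerase-deficient ovary. The sources do not say whether each library came from 1 graft or 1 mouse, so the p-values measure only the spread between these libraries.

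Mammalian telomeres end in a single-stranded overhang of a G-rich repeat. Within shelterin, TRF1 (Terf1) and TRF2 (Terf2) bind the double-stranded repeat, RAP1 (Terf2ip) binds TRF2, TIN2 (Tinf2) bridges TRF1 and TRF2 to TPP1 (Acd), and TPP1 holds POT1 on the single strand. Rodents carry a pair of Pot1 genes in place of the single human gene. Mouse POT1A is known for holding back the ATR damage response, and POT1B for limiting the cutting back of the C-rich strand. TPP1 also recruits telomerase, whereas CST (CTC1, STN1 and TEN1) resembles the single-strand binding protein RPA, ends telomerase action and brings in DNA polymerase alpha-primase to fill in the C-rich strand. mTOR kinase drives protein synthesis and growth.

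The libraries held between 19130209 and 23029089 counts, and 3 counts corresponded to 0.127 to 0.161 CPM (counts scaled to the library total and its TMM factor). The INK128 libraries resembled each other more (Pearson's r of log2 CPM across genes 0.98) than the Control libraries did (0.806). Control replicate 3 nearly lacked oocyte transcripts, the summed level of 11 oocyte markers being 29.1 CPM there against 852 CPM in Control replicate 1 and 1205 and 887 CPM in the INK128 libraries. Kidney transcripts ran the other way, with 12 markers summing to 68.1 and 140 CPM in the INK128 libraries, then 498 and 1254 CPM in Control replicates 1 and 3, and 10 of the 12 lay lower in both INK128 libraries, where Slc12a1 had 1 and 0 counts. The 10 immune markers summed to 271 and 253 CPM with INK128 and to 396 and 592 CPM in Control, and 7 of them lay lower in both INK128 libraries. The 7 granulosa cell markers, which define the follicle wall, summed to 5744, 7561, 2711 and 5926 CPM in INK128 replicates 1 and 2 and Control replicates 1 and 3. Transcripts of this list were thus present in every library, but its genes did not move together. In the same order, Amh measured 131, 80.1, 435 and 5.10 CPM, and Foxl2 measured 371, 368, 146 and 276 CPM. Transcripts of Y-linked genes reached 45.2 CPM in Control replicate 1 and at most 0.107 CPM in the other libraries. The part of this cell makeup in the results below was not tested, and in whole-graft RNA fewer cells of a type and less RNA per cell cannot be told apart.

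The Pot1 paralogs are similar enough that their reads must be told apart by scattered base differences. Both annotated coding sequences are 1920 bases long (GENCODE M21, GRCm38). Of 1917 aligned bases 1511, or 78.8%, were identical, with a longest identical run of 41 bases, and the first 120 coding bases show how the differences are spaced. Capitals mark the bases at which the paralogs differ, and 21 of the 120 do.
Pot1a: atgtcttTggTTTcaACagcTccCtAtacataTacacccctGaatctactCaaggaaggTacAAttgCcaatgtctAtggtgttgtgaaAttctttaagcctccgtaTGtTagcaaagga
Pot1b: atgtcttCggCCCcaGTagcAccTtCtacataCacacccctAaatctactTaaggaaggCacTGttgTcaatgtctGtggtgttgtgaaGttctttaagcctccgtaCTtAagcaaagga
Of the 50-base stretches of the longest annotated transcript, none of Pot1a occurred in transcripts of another gene and 2.0% of those of Pot1b did. The remaining exons were not searched.

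The promoters of the 3 genes below are shown because these genes, Ten1, Acd and Tinf2, were the members with an unadjusted p under 0.05 (values below). Each window holds the 250 bases before the annotated start (RefSeq, GRCm38.p6), read 5′ to 3′ on the strand of the gene, with motif matches in capitals. Each motif was searched on both strands, as TGACGTCA for the cyclic AMP response element (CRE). The E-box was searched as CACGTG. The ETS core was searched as CCGGAA. The GC box was searched as GGGCGG, and CCAAT and the NRF1 motif were searched as well. The RefSeq start of Acd lies upstream of the GENCODE start.
Ten1, chr11:116198605-116198854, plus strand: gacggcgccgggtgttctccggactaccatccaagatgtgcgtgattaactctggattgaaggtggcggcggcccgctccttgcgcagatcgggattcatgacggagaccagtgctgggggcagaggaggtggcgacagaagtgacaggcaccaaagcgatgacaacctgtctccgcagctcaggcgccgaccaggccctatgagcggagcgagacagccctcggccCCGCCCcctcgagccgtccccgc
Acd, chr8:105701229-105701478, minus strand: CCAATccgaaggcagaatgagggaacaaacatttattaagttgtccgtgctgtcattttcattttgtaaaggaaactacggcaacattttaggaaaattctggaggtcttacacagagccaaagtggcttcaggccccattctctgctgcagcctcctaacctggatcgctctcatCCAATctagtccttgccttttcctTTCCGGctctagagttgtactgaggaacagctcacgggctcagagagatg
Tinf2, chr14:55681818-55682067, minus strand: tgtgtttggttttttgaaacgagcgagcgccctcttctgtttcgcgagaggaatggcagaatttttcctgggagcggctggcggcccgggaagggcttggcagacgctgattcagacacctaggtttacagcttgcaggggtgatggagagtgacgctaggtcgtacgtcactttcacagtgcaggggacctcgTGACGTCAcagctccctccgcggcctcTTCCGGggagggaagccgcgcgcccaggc
The Tinf2 window held a whole CRE beginning 56 bases before the start, a match found in 1.55% of the 32851 promoter windows of the RefSeq table, and an ETS core at 29 bases. The Acd window held CCAAT at 250 and 74 bases and an ETS core at 50 bases, and the Ten1 window held a GC box at 23 bases. None of these motifs was common to the 3 windows. Of the 9 members with a window, 5 held the GC box (35.4% of all genes with a window), 4 held CCAAT (37.5%), 3 held the ETS core (13.6%), 1 held the CRE (Tinf2, 1.77%), 1 held the E-box (Ctc1, 6.86%) and 0 held the NRF1 motif (0.88%). A match describes the letters of the window and is not a measured binding site.

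Of the 10 genes, 9 had a mean above 10 CPM and were tested among 11758 genes with edgeR's quasi-likelihood test and Benjamini-Hochberg adjustment. A gene was called at an adjusted p under 0.05 and a fold change above 1.5. The lowest edgeR adjusted p of any gene was 0.0464, and 1622 genes with a fold change above 1.5 had one under 0.06. Calls therefore lay close to the limit. No member was called, with 0 higher and 0 lower, against a background of 3.18% of all tested genes called higher and 3.19% called lower. In simulated data with 200 changed genes among 11758, this test recovered 0% at a log2 fold change of 1 and 80% at 2. The largest log2 fold change of a member was 0.81 (Ten1), so the absence of calls does not show that the members were unchanged. At an unadjusted p under 0.05, 3 members were higher (Tinf2, Acd and Ten1; background 17.7%) and 0 were lower (background 18.7%). DESeq2 called 1 member, Ten1, higher (background 13.6%) and 0 lower (background 15.1%), and limma voom called 0. At a simulated log2 fold change of 1, 40% of the 15 DESeq2 calls were false. At an adjusted p under 0.1 edgeR called 1 member higher, again Ten1 (background 13.1%), and 0 lower (background 13.5%). The edgeR count rested on the Control libraries, with 4 of the 9 called higher without Control replicate 1 (Tinf2, Acd, Stn1 and Ten1), where 22.7% of all tested genes were called higher and 23.2% lower. Without Control replicate 3, 2 were called higher (Acd and Ten1), where 21.2% of all tested genes were called higher and 21.4% lower. No member was called lower in either fit, and without either INK128 library 0% of all genes were called. Pot1b was below the 10 CPM filter and was tested only in a wider edgeR fit of 17631 genes above 1 CPM, in which 0% of genes were called in either direction. Both INK128 libraries lay above both Control libraries in 5 of the 10 genes (Terf1, Tinf2, Acd, Stn1 and Ten1; 34.5% of tested genes did so) and below them in 1 (Pot1b; 34% of tested genes), while 4 overlapped. The median log2 fold change of the 10 genes was 0.26, beside −0.03 for all tested genes, and it was 0.078 without Control replicate 3 and 0.47 without Control replicate 1.

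**Figure D1:**
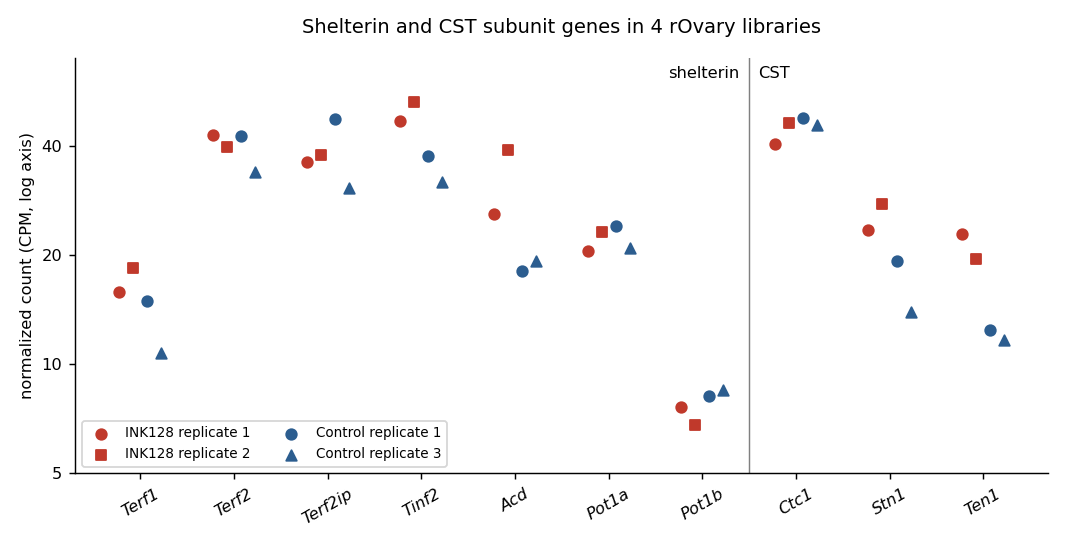
Level of each shelterin and CST gene in each library, in CPM. The axis is a log axis, and each point is 1 of the 4 libraries (INK128 red, Control blue). Tinf2, Acd, Stn1, Ten1 and Terf1 show both INK128 points above both Control points, by the widest ratio of means for Ten1 (1.76-fold).

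For both double-strand binders the interval of the fold change included 0. Terf1 measured 15.9 and 18.5 CPM in INK128 replicates 1 and 2 and 14.9 and 10.8 CPM in Control replicates 1 and 3. The groups did not overlap, but the nearest values, INK128 replicate 1 and Control replicate 1, were close together. Its log2 fold change was 0.42 (standard error 0.30, 95% interval −0.37 to 1.21, edgeR adjusted p = 0.356). Without Control replicate 1 the log2 fold change was 0.68, and without Control replicate 3 it was 0.20. Terf2 measured 42.9 and 39.9 CPM with INK128 and 42.8 and 34.03 CPM in Control. Control replicate 3 was low, the others were alike, and the groups overlapped. The 95% interval of the log2 fold change of Terf2 ran from −0.44 to 0.66 around 0.11 (edgeR adjusted p = 0.722), and scaling to library totals alone, which moved the median of all genes to −0.15, gave −0.01.

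Terf2ip, whose product joins shelterin through TRF2, measured 36.3 and 38.0 CPM with INK128 and 47.7 and 30.7 CPM in Control. The Control libraries enclosed both INK128 libraries, so the direction of its fold change was set by the choice of Control library. The log2 fold change was −0.08 with a 95% interval of −0.80 to 0.64 (edgeR adjusted p = 0.85). It was 0.27 without Control replicate 1 and −0.36 without Control replicate 3.

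Tinf2, the bridging subunit, measured 47.0 and 53.0 CPM with INK128 and 37.6 and 31.9 CPM in Control. The groups were separated by a gap larger than the difference within either group. The means were 49.98 ± 4.19 CPM and 34.8 ± 4.0 CPM (SD, n = 2 each), a 1.44-fold difference. The 95% interval of its log2 fold change (0.52, standard error 0.20) ran from 0.01 to 1.04, and its edgeR adjusted p was 0.134 (0.0479 unadjusted). This adjusted p was 0.106 to 0.215 over the other tests, scalings and filters.

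Acd, whose product TPP1 links POT1 to the rest of shelterin and recruits telomerase, measured 26.03 and 39.01 CPM with INK128 and 18.1 and 19.3 CPM in Control. The Control libraries were alike, and the INK128 libraries differed from each other by more than INK128 replicate 1 differed from Control. The group means were 32.5 ± 9.17 CPM and 18.7 ± 0.823 CPM (SD, n = 2 each), a 1.74-fold difference. For Acd the log2 fold change was 0.80 (standard error 0.28), and its unadjusted p of 0.0383 became 0.119 after the Benjamini-Hochberg adjustment of edgeR. Leaving out INK128 replicate 2, the highest library, gave 0.47, and leaving out INK128 replicate 1 gave 1.05.

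Neither single-strand binder was higher in both INK128 libraries. Pot1a measured 20.6 and 23.2 CPM with INK128 and 24.04 and 20.9 CPM in Control, so the groups overlapped, and the log2 fold change was −0.04 (95% interval −0.64 to 0.56, edgeR adjusted p = 0.914). Pot1b measured 7.62 and 6.81 CPM with INK128 and 8.19 and 8.52 CPM in Control. Pot1b was the member in which both INK128 libraries were the lower ones, by a log2 fold change of −0.16 (95% interval −0.98 to 0.66, adjusted p = 0.741 in the wider edgeR fit). Pot1b took 27.1%, 22.7%, 25.4% and 28.9% of the summed reads of the 2 paralogs in INK128 replicates 1 and 2 and Control replicates 1 and 3, with exact binomial 95% intervals of 23.3 to 31.1%, 19.5 to 26.1%, 22.3 to 28.7% and 25.6 to 32.5%. These intervals cover counting error only. The mean share was 24.9 ± 3.10% with INK128 and 27.2 ± 2.49% in Control (SD, n = 2 each), and the groups overlapped (difference −2.32 percentage points, exact permutation test, two-sided p = 0.667, where 0.333 is the smallest possible). The difference was −0.13 without INK128 replicate 2, −0.56 without Control replicate 3, −4.08 without Control replicate 1 and −4.51 without INK128 replicate 1.

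**Figure D2:**
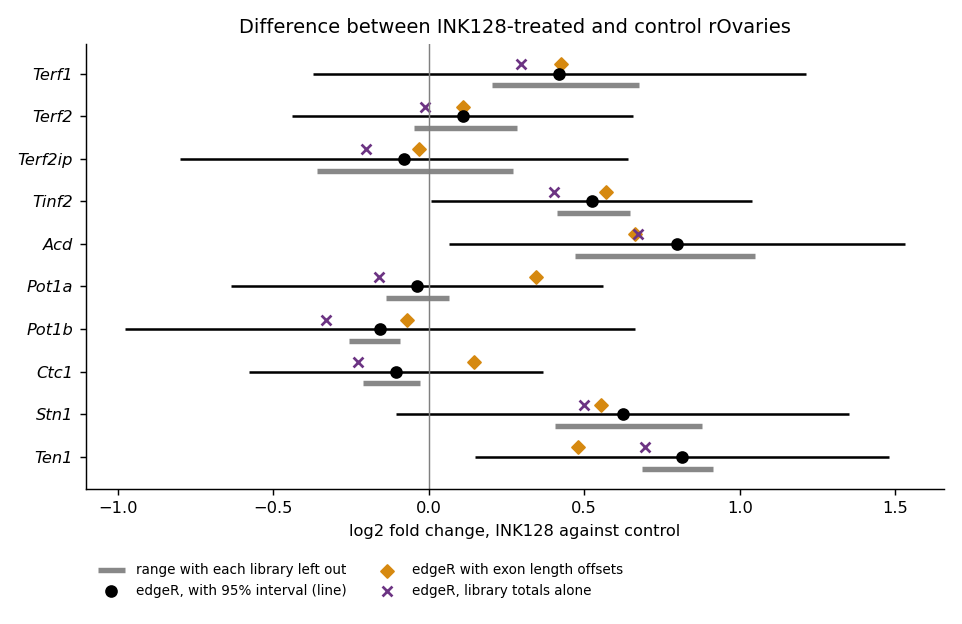
Log2 fold change of each member (INK128 against Control) from edgeR, with its 95% interval as a black line, the range with each library left out as a grey bar, and the values with length offsets (diamonds) and with library totals alone (crosses). The intervals of Tinf2, Acd and Ten1 lie above 0 and the other 7 include 0, while no adjusted p was under 0.05 (lowest 0.0986, Ten1).

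In CST, the groups were separate for the genes of both small subunits and overlapped for that of the large one. Ctc1, the large scaffold subunit, measured 40.6 and 46.3 CPM with INK128 and 47.9 and 45.7 CPM in Control. The groups overlapped, and the log2 fold change of Ctc1 was −0.11 with a 95% interval of −0.58 to 0.37 (edgeR adjusted p = 0.686). Stn1 measured 23.5 and 27.8 CPM with INK128 and 19.4 and 13.96 CPM in Control. Its groups were separate, with a 1.54-fold difference of means (25.7 ± 3.02 CPM and 16.7 ± 3.81 CPM, SD, n = 2 each). The interval of its log2 fold change of 0.62 included 0 (−0.11 to 1.35, edgeR adjusted p = 0.179), and the change ranged from 0.41 without Control replicate 3 to 0.88 without Control replicate 1.

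Ten1, the smallest subunit, measured 22.9 and 19.6 CPM with INK128 and 12.5 and 11.7 CPM in Control. Both groups were tight, and the gap between them exceeded the spread within each. The means were 21.3 ± 2.35 CPM and 12.1 ± 0.568 CPM (SD, n = 2 each). The log2 fold change of Ten1 was the largest of the 10 genes, 0.81 (standard error 0.25, 95% interval 0.15 to 1.48), and edgeR gave it an adjusted p of 0.0986 (0.0261 unadjusted). DESeq2 gave the same log2 fold change of 0.81 (standard error 0.33), for which its adjusted p was 0.0471. Over the other tests, scalings and filters the adjusted p of Ten1 ran from 0.0471 to 0.294.

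Exon length moved with these fold changes. Across all tested genes with a length, the log2 fold change fell with the union exon length (Spearman's rho −0.465 over 11700 genes, which share the same 4 libraries). The median was 0.59 in the shortest of 5 equal groups of 2340 genes (57 to 2385 bases), 0.24 in the next (2387 to 3738 bases), −0.03 in the middle group (3739 to 5297 bases), −0.27 in the next (5298 to 7772 bases) and −0.54 in the longest (7773 to 123179 bases). Among the 10 members rho was −0.867, the shortest being Ten1 (2728 bases), Acd (3625 bases) and Stn1 (4045 bases), and the longest Pot1a (8669 bases) and Ctc1 (6797 bases). The 3 shortest members were also the 3 with the largest fold changes.

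Against the median of genes in the same length group, 8 of the 10 members were higher and 2, Terf2ip and Pot1b, were lower. The differences from that median were largest for Stn1 (0.66), Ten1 (0.58), Acd (0.56), Tinf2 (0.56) and Pot1a (0.51). With offsets that remove the length trend from each library, rho was 0.00363 over all genes and −0.576 over the members. The log2 fold change was then 0.57 for Tinf2 (edgeR adjusted p = 0.164), 0.66 for Acd (0.216), 0.55 for Stn1 (0.271), 0.48 for Ten1 (0.294) and 0.42 for Terf1. Pot1a, at −0.04 without the offsets, was 0.34 with them (edgeR adjusted p = 0.406), and Ctc1 moved from −0.11 to 0.14 (edgeR adjusted p = 0.644). edgeR called 0 of the 11758 genes with these offsets. The part of fragment length or RNA quality in this trend was not tested.

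**Figure D3:**
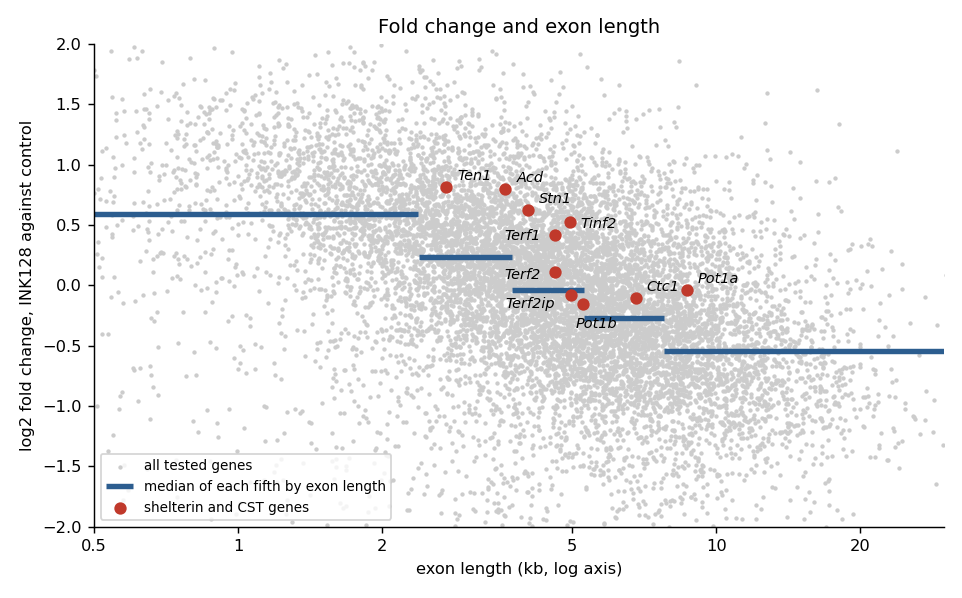
Log2 fold change (INK128 against Control) against union exon length in kilobases on a log axis. Grey points are tested genes between 0.5 and 30 kb and between −2 and 2, blue bars are the medians of the 5 groups by length (0.59 in the shortest, −0.54 in the longest), and red points are the shelterin and CST genes. The short members Ten1 and Acd lie highest, and 8 of the 10 members lie above the bar of their group.

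Levels were compared between genes per length, as TPM (length-scaled counts as a share of their library's sum) with union exon lengths. The mean over the 4 libraries was 20.4 TPM for Terf2, 19.7 for Tinf2, 18.3 for Terf2ip, 16.0 for Acd, 15.8 for Ctc1, 13.9 for Ten1, 12.0 for Stn1, 7.53 for Terf1, 6.07 for Pot1a and 3.54 for Pot1b. Neighbours from Terf2 down to Stn1 overlapped in their ranges over the libraries, and a different gene ranked first in each library (Tinf2, Acd, Terf2ip and Terf2 in INK128 replicates 1 and 2 and Control replicates 1 and 3). Terf1 (6.41 to 8.76 TPM) lay below every value of Stn1 (9.48 to 13.7 TPM) and overlapped Pot1a (4.78 to 7.504 TPM). Pot1b was the lowest in all 4 libraries, at 2.91, 2.58, 4.21 and 4.44 TPM in the same order. Set among all tested genes, Terf2 lay at percentile 45.8 of mean TPM, Terf1 at 12.1 and Pot1a at 7.75, and every member lay below the median of the tested genes. With the longest transcript as the length, Pot1a (13.1 TPM) ranked above Terf1 (9.73 TPM) and Pot1b (4.25 TPM) still ranked last.

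**Figure D4:**
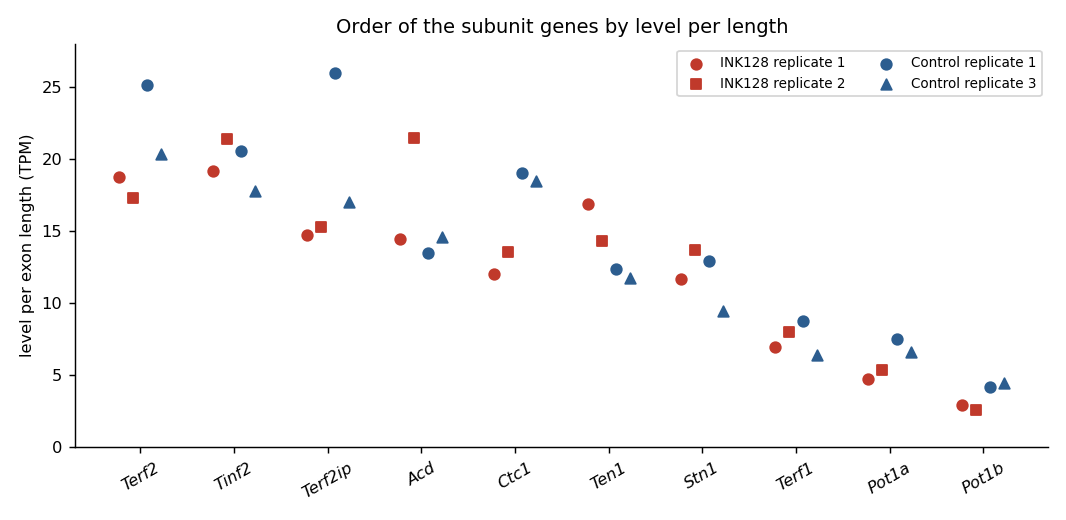
Level per exon length (TPM) of the members in the 4 libraries, ordered by their mean over the libraries (INK128 red, Control blue). Neighbours in the order from Terf2 to Stn1 overlap, with means between 12.0 and 20.4 TPM, and Pot1b is the lowest in every library (2.58 to 4.44 TPM).

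Because the TPM scale divides by length, it carried a common shift of −0.44 (log2) between the groups relative to CPM. It was therefore used for order and for ratios within a library, and not for changes of single genes. Dividing by length does not remove the trend of fold change with exon length from ratios of genes of unlike length. The part of that trend in the CST share was not tested. The ratio of Terf1 to Terf2 per length was 0.370 and 0.461 with INK128 and 0.348 and 0.315 in Control. Both INK128 ratios were higher (means 0.415 ± 0.0646 and 0.332 ± 0.0232, SD, n = 2 each), with a two-sided exact permutation p of 0.333, the smallest 2 against 2 can give. Their difference of 0.0836 was 0.038 without INK128 replicate 2 and 0.129 without INK128 replicate 1. CST made up 33.2% and 31.3% of the summed level of the 10 genes with INK128 and 29.6% and 31.3% in Control. The means, 32.3 ± 1.35% and 30.4 ± 1.23% (SD, n = 2 each), differed by 1.83 percentage points (exact permutation test, two-sided p = 0.333). It was 0.872 without INK128 replicate 1, 0.959 without Control replicate 1, 2.70 without Control replicate 3 and 2.78 without INK128 replicate 2. Without Ten1 the difference was −1.001 percentage points, so its direction rested on that gene.

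Some members share exons with genes on the opposite strand, and whether the counting used strand is not given in the sources used here. Tinf2 (mm10, chromosome 14, 55674689 to 55681820, minus strand) shares 1540 bases, or 31.2% of its exon length, with Gmpr2, a GMP reductase gene. Gmpr2 measured 34.8 and 38.6 CPM with INK128 and 28.6 and 26.7 CPM in Control (log2 fold change 0.41, edgeR adjusted p = 0.198). Acd (chromosome 8, 105695860 to 105701102, minus strand) shares 1208 bases, or 33.3%, with Carmil2, which measured 7.3, 5.43, 3.81 and 3.71 CPM in the 4 libraries in the order above. Both partners were thus higher in the INK128 libraries, as Tinf2 and Acd were, and reads of a shared stretch cannot be told apart without strand.

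Smaller overlaps were found for Stn1 (chromosome 19, 47501033 to 47537507, minus strand), which shares 3.1% of its exons with Gm19557, and for Terf2ip, which shares 2.2% with Gm6793. Ten1 lies on chromosome 11 from 116198855 to 116215318 on the plus strand. The log2 fold change of Pard6a, which starts 46 bases from Acd, was 0.81 (adjusted p = 0.201 in the wider edgeR fit), and Kars, 75 bases from Terf2ip, had 0.32 (edgeR adjusted p = 0.239).

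The partners of these complexes were examined by lists, for which the shares of all tested genes are 3.18% called higher and 3.19% lower by edgeR, and 17.7% higher and 18.7% lower at an unadjusted p under 0.05. DNA polymerase alpha-primase, the enzyme that CST brings to the C-rich strand, had 0 of 4 subunit genes called by edgeR, 1 at an unadjusted p under 0.05, and a median log2 fold change of 0.32. Prim1, the catalytic primase subunit, measured 22.0 and 24.6 CPM with INK128 and 13.5 and 11.8 CPM in Control (log2 fold change 0.88, edgeR adjusted p = 0.0825), whereas Pola1, the catalytic polymerase subunit, had −0.38 (0.251), and Pola2 and Prim2 had 0.32 (0.342) and 0.32 (0.458). The exons of Pola1 span 8813 bases, and with the length offsets its log2 fold change was 0.016. Of the 3 RPA genes 0 were called by edgeR and 1 had an unadjusted p under 0.05, so in neither list does a count of 1 stand apart from those shares. In RPA it was that of the smallest subunit, Rpa3, which measured 29.7 and 39.2 CPM against 17.1 and 15.1 CPM (log2 fold change 1.10, edgeR adjusted p = 0.06). Rpa2 had 0.52 (edgeR adjusted p = 0.299) with overlapping groups. The exons of Rpa3 span 1136 bases, and with the length offsets its log2 fold change was 0.36, against 0.56 for Rpa1 and 0.25 for Rpa2.

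Among 23 telomere-associated factors tested, 0 were called higher and 1 lower, a share close to the 3.19% of all tested genes called lower, with a median log2 fold change of −0.40 and a median exon length of 6730 bases. The called gene was Tnks, which encodes tankyrase. Tnks measured 61.2 and 55.1 CPM with INK128 and 162 and 153 CPM in Control (log2 fold change −1.44, standard error 0.17, edgeR adjusted p = 0.0464). The gap between the groups was wider than the spread within either, and with the length offsets the log2 fold change was −0.82 (exons of 14888 bases). For its paralog Tnks2 it was −0.59 (edgeR adjusted p = 0.12). Rif1, which acts at damaged and replicating telomeres, was not called and had −1.05 (edgeR adjusted p = 0.063), and −0.58 with the length offsets. The list held members on both sides, 4 of the 23 being higher and 12 lower without overlap (34.5% and 34% of all tested genes). Its highest fold changes were those of Zbtb48 (1.08, edgeR adjusted p = 0.132) and Ercc1 (0.98, edgeR adjusted p = 0.0611).

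Of 5 tested genes of telomere damage signalling, 1 was called lower (3.19% of all tested genes were). It was Atm, the kinase that TRF2 holds back at telomeres, with 2.79 and 3.77 CPM with INK128 and 15.6 and 26.02 CPM in Control (log2 fold change −2.66, standard error 0.41, edgeR adjusted p = 0.0464, and −2.18 with the length offsets). Atm passed the 10 CPM filter only through the Control libraries (mean 20.8 CPM, against 3.28 CPM with INK128). The wider edgeR fit above 1 CPM called 0% of genes. Atr, the kinase that POT1 holds back, was not called (−0.93, edgeR adjusted p = 0.0614). Its exons span 23629 bases, and the length offsets brought its log2 fold change to −0.12.

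Of the telomerase ribonucleoprotein genes 7 of 9 were tested, 1 was called higher (3.18% of all tested genes were), namely Nhp2 (1.22, edgeR adjusted p = 0.0464, and 0.48 with the length offsets), and the median log2 fold change was 0.46. Nop10, whose protein binds the same class of RNA, had 1.25 (edgeR adjusted p = 0.0597). Tert, the reverse transcriptase, measured 6.12 and 4.09 CPM with INK128 and 7.08 and 6.58 CPM in Control, with a log2 fold change of −0.37 (adjusted p = 0.536 in the wider edgeR fit). Terc had 0 counts in 3 libraries and 1 in Control replicate 1, in libraries made from polyA RNA. Kash5 and Terb1, which attach meiotic telomeres to the nuclear envelope, were lowest in Control replicate 3, as the oocyte markers were. Kash5 had 95 and 102 counts with INK128, 102 in Control replicate 1 and 4 in Control replicate 3, and Terb1 had 32, 24, 30 and 2. Spdya, from the same list of meiotic attachment genes, was not lowest there, with 66, 74, 35 and 44 counts in the same order. Of the 8 genes in that list 3 were tested, and 0 were called by edgeR or had an unadjusted p under 0.05. The widely expressed Sun2 and Sun1 of that list had −0.62 (edgeR adjusted p = 0.197) and −0.32 (0.401). Over the 45 tested genes of all these lists edgeR called 6.67% (6.37% of all tested genes) and DESeq2 33.3% (28.6%), while limma voom, the length offsets and leaving out either INK128 library called 0 of them and 0 of all tested genes.

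**Figure D5:**
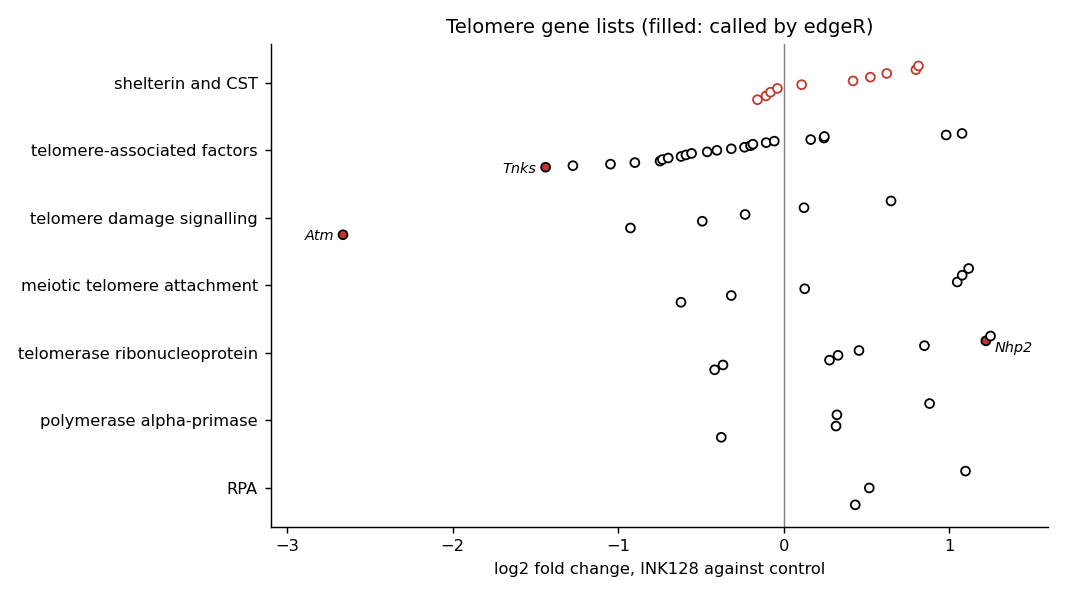
Log2 fold change (INK128 against Control) of each gene in the telomere gene lists, 1 point per gene (genes under 10 CPM from the wider fit), with called genes filled. Tnks (−1.44), Atm (−2.66) and Nhp2 (1.22) are the 3 called genes, each at 0.0464, the lowest edgeR adjusted p of any gene. The shelterin and CST genes lie between −0.16 and 0.81.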

How the data were processed

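Libraries were assigned to INK128 or Control from their labels. Per the methods and the submitters' processing notes, reads were trimmed with Trimmomatic, aligned to mm10 with HISAT2 and counted with featureCounts. The table the authors deposited holds unnormalized counts for each symbol, 1 column a library. Each of the 10 members was found by symbol.

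CPM used library totals and TMM factors. The quasi-likelihood test of edgeR 4.0.16 (R 4.3.3) with Benjamini-Hochberg adjustment was run on 11758 genes with a mean CPM above 10, and on 17631 above 1 for genes below that filter. DESeq2 1.42.0 and limma 3.58.1 voom, other scalings and filters, and lowess offsets (span 0.3) for exon length or GC content were alternatives. Positions and union exon lengths came from GENCODE M21. The scripts were tested on simulated data. With 2 libraries a group, no exact permutation p can be under 0.333.

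The named genes were the members, Terc, Tert, Rif1, Nhp2, Nop10, the polymerase alpha-primase genes and, in each telomere list, every called gene or else the 2 largest fold changes. Tnks2, Atr, Zbtb48, Ercc1, Rpa1, Kash5, Terb1, Spdya, Amh, Foxl2 and neighbouring genes were chosen after their values were seen. Some genes are not reported here. Members and lists were chosen with earlier results of these data known.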

Additional observations from a re-analysis of the deposited data

How the results depend on the processing

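No paired analysis was run, because the sources used here name no pairing between INK128 and Control libraries. Members called higher numbered 0 in the main edgeR test, 1 with DESeq2 and 1 at an adjusted p under 0.1 (Ten1 in both, with 13.6% and 13.1% of all tested genes called higher). Leaving out 1 library gave 0 to 4, with 4 without Control replicate 1 (Tinf2, adjusted p = 0.0188; Acd, 0.0392; Stn1, 0.0171; Ten1, 0.0213) and 2 without Control replicate 3 (Acd, 0.0248; Ten1, 0.0354), by edgeR. The lone library of a group is then assumed to vary like the other group. The median log2 fold change of the members ran from 0.078 (without Control replicate 3) to 0.47 (without Control replicate 1). The CST share differed by −1.001 percentage points without Ten1.

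Genes called in the telomere lists numbered 3 in the main test, 15 with DESeq2, 0 with limma voom, 0 with length offsets, 4 with library totals alone (8.89%, beside 7.4% of all tested genes), and 0 to 20 with 1 library left out (0 without either INK128 library, 19 without Control replicate 1 and 20 without Control replicate 3). The last 2 counts are 42.2% and 44.4% of the 45 list genes, beside 45.8% and 42.6% of all tested genes. These alternatives for the lists were chosen after seeing the data.

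Directions reversed in genes near 0. Pot1a was 0.025 with upper quartile scaling, 0.015 with a mean CPM above 1, 0.00057 with at least 1 count, 0.34 with length offsets and 0.10 with GC offsets, and −0.14 to 0.066 with 1 library left out. Terf2 was −0.012 with library totals and −0.047 to 0.28 with 1 library left out. Ctc1 was 0.14 with length offsets. Terf2ip was 0.037 with GC offsets and −0.36 to 0.27 with 1 library left out. The cause was not tested. Of 140 fold changes of single members over these settings, 12 reversed, 7 passed a threshold the main value did not, and 121 kept both direction and side. The 121 include values of Pot1b that were not recomputed. With CPM above 10 in all 4 libraries and with a mean CPM above 1, its value is the main one, from the same wider fit.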
